A study of Homo sapiens with 8 samples.

Results

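The 78 genes described here encode subunits of the respiratory chain and of ATP synthase in the nucleus, out of 17709 transcript clusters (probe groups that report 1 gene) with a symbol. They were taken by symbol: the NDUFA, NDUFB, NDUFC, NDUFS and NDUFV genes with a number, the SDH genes A to D, CYC1, and symbols that begin with UQCR, COX4 to COX8 or ATP5. Each had a single cluster. By complex they were 31 genes of complex I, 3 of complex II, 9 of complex III, 17 of complex IV and 18 of complex V. Among them were 5 genes that are no standard subunit: COX7A2L, UQCRHL, ATP5MGL, ATP5IF1 and the readthrough ATP5MF-PTCD1. NDUFV1-DT, a transcript that runs away from NDUFV1, was left out.

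The RNA came from 8 tumours of SK-OV-3, a human ovarian cancer cell line, grown in nude mice, with 1 Affymetrix array each. In 4 of them the cells carried pIND_BORA, a vector that overexpresses BORA, a cofactor of Aurora A in the activation of PLK1 at mitotic entry. In the other 4 they carried the empty vector pIND_EV (EV). Both groups shared the cell line and the nude mouse host. No host age or inducing agent is named in the labels. How many mice carried the 4 tumours of each group, and how many transfected pools were used, is not stated there either. The p-values therefore measure only how far these samples spread, which may be technical. In tissue RNA, fewer cells of a type and less RNA per cell cannot be told apart.

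The respiratory chain sits in the inner mitochondrial membrane. Complexes I and II take electrons from NADH and succinate and pass them through ubiquinone to complex III, cytochrome c and complex IV, which reduces oxygen. Complexes I, III and IV pump protons, and complex V, ATP synthase, lets them flow back to make ATP. Complexes I, III, IV and V also hold subunits encoded in mitochondrial DNA, so the genes described here supply only part of each of these assemblies. The promoters of many nuclear members carry sites for NRF1 and for ETS factors of the GABP type.

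EV replicate 1 stood apart from the other arrays. Its mean correlation with the other 7 over all clusters was 0.948, against 0.978 to 0.983 for the rest, and its mean log2 level over 11 squamous epithelial markers was 13.26, against 5.28 to 5.86 in the other 7 tumours. The counts and complex medians are therefore given over 8 arrays and over the 7 without it, and the plot of member differences shows both values for each of the 78 genes. BORA arrays also spread wider than EV arrays, with upper quartiles of 9.45 to 9.55 against 9.37 to 9.43 and lower quartiles of 4.65 to 4.76 against 4.85 to 4.88. Brightness was judged against the negative controls, probes meant to match no transcript, by the 95th percentile of their signals, and 6861 clusters exceeded it in both groups. Of these, 63.8% were higher in BORA tumours. BORA itself was at 12.55 to 13.00 in BORA tumours and 6.15 to 7.32 in EV tumours.

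Respiratory chain genes of all 5 complexes had median log2 differences above 0 in BORA tumours, by small amounts. The median was 0.29 in complex I, 0.53 in complex II, 0.18 in complex III, 0.35 in complex IV and 0.25 in complex V, and 0.28 over all 78, beside -0.03 over all clusters. Of the 78, 66 had a mean log2 difference (BORA minus EV) above 0. This was so for 46.6% of all clusters and 63.8% of those above the negative controls. None passed limma at an adjusted p under 0.05 in either direction (0 of 78, where 0.102% of all clusters were called higher and 0% lower). By the unadjusted limma p, 19 members (24.4%) were higher at under 0.05, where 7.37% of all clusters were, and 0 were lower, where 7.17% of all clusters were. Most members are bright, and among the 6861 bright clusters 10.6% were higher and 2.68% lower by the same p. Both groups were fully separate for 16 members (20.5%), each higher in BORA tumours, against 4.45% of all clusters and 6.37% of those above the negative controls. In the opposite direction it was 0 members, against 4.91% of all clusters and 1.68% of those above the negative controls. These members share arrays and are not independent of each other, so the counts are a description.

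Without EV replicate 1 the medians were 0.27, 0.35, 0.18, 0.24 and 0.18 for complexes I to V. A value above 0 was seen in 63 members, against 46.1% of all clusters and 61.3% of the bright ones. Of the 63 members, 62 had a value above 0 over 8 arrays too. ATP5MF was the single member past the threshold (1 of 78, where 0.435% of all clusters were called higher and 0.0791% lower). Before adjustment, 15 members were higher at a p under 0.05 (19.2%, against 7.7% of all clusters) and 0 lower (against 7.62%), where 11.1% of the bright clusters were higher and 3.41% lower. The groups were then separate for 17 members, NDUFB2 in addition to the 16 above, where 6.66% of all clusters, and 9.52% of those above the negative controls, were separate with BORA higher. None was separate with BORA lower (0 of 78, against 7.68% of all clusters and 3.34% of the bright ones). The medians of complexes III and V also moved with other arrays. Over 8 arrays that of complex III was 0.12 without BORA replicate 4, and that of complex V 0.16 without BORA replicate 1. From the 7 arrays, leaving out BORA replicate 1 as well gave 0.11 and 0.07 for complexes III and V, and leaving out EV replicate 4 gave 0.09 for complex III. Complex II was at 0.35 over 8 arrays without BORA replicate 1.

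The mean of the complex I members in each tumour, after each gene was set to 0 at its mean over 8 arrays, was 0.30, 0.07, 0.17 and 0.11 in BORA replicates 1 to 4. It was -0.36, -0.19, -0.01 and -0.10 in EV replicates 1 to 4, so the groups did not overlap. Complex II gave 0.52, 0.15, 0.04 and 0.36 against -0.51, -0.31, -0.26 and 0.01, again without overlap but with a narrow gap. In complexes III, IV and V the groups overlapped. There BORA replicate 2 was the lowest BORA tumour at -0.04, -0.06 and -0.02, and EV replicate 3 was the highest EV tumour at 0.04, 0.05 and 0.09.

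**Figure D1:**
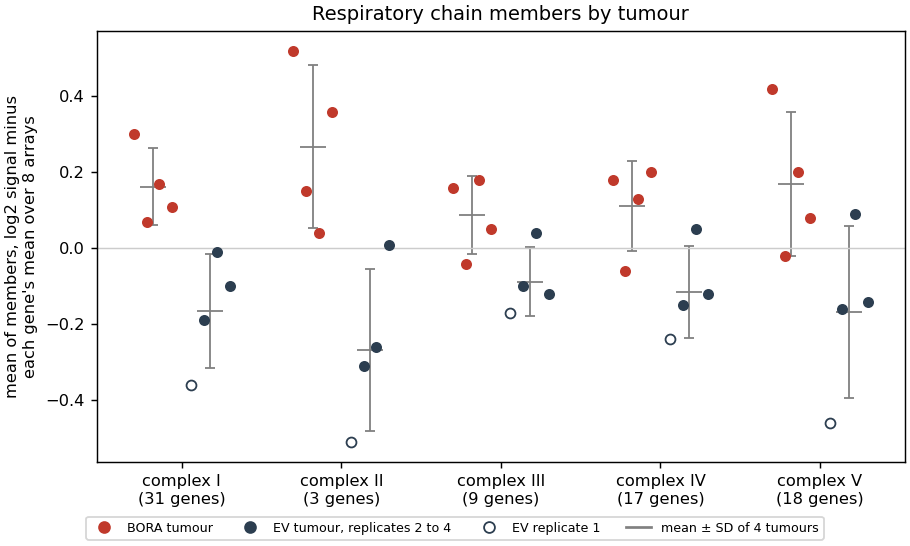
Mean of the members of each complex (y axis, log2 signal minus each gene's mean over 8 arrays) in each tumour; points are tumours, grey bars the mean ± SD of 4 tumours, and the open point is EV replicate 1. BORA and EV tumours are separate in complexes I and II and overlap in complexes III, IV and V, and EV replicate 1 is the lowest tumour in all 5.

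EV replicate 1 was the lowest of the 8 arrays for 35 of the 78 members (44.9%), against 33.9% of the 6861 clusters above the negative control percentile. BORA replicate 1 was the highest for 31 members (39.7%), against 19.3% of those clusters. Without BORA replicate 1 the number of members higher at an unadjusted p under 0.05 went from 19 to 12, and 61 of 78 had values above 0.

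**Figure D2:**
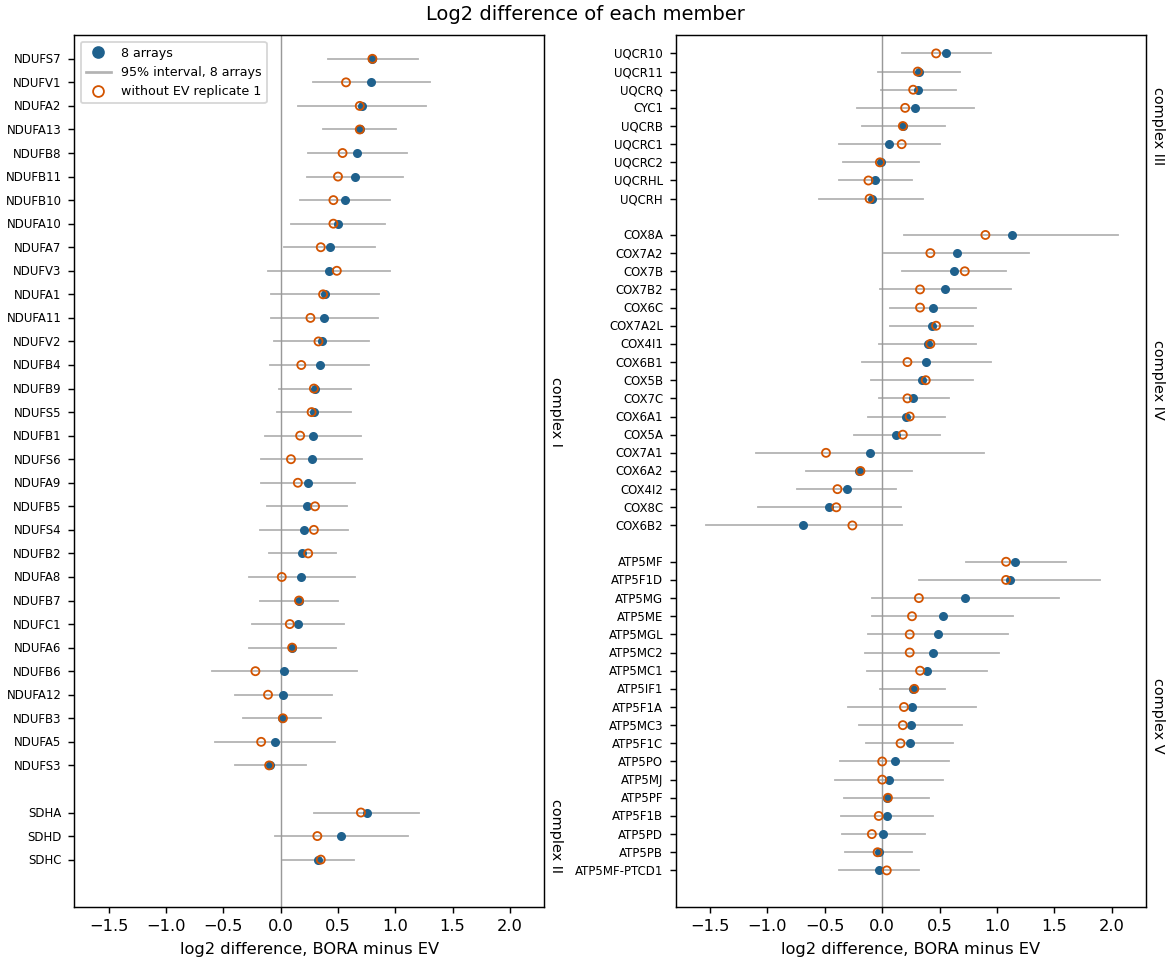
Log2 difference (BORA minus EV, x axis) of each of the 78 members by complex; filled points use 8 arrays with 95% intervals, open points leave out EV replicate 1. Most points lie between 0 and 0.8, with ATP5MF, COX8A and ATP5F1D above 1 and 5 complex IV genes among the lowest.

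In the hydrophilic arm of complex I, which holds the path from NADH to quinone, 11 of 13 members had values above 0 (median 0.27). NDUFV1, which binds NADH and the flavin at the entry of electrons, was at 10.94, 10.65, 11.06 and 10.83 in BORA replicates 1 to 4. It was at 9.40, 10.18, 10.34 and 10.40 in EV replicates 1 to 4, so every BORA tumour lay above every EV tumour. The log2 difference was 0.79 (SE 0.229, limma adjusted p = 0.209) and 0.57 without EV replicate 1 (SE 0.166, adjusted p = 0.149). NDUFV2, the iron-sulfur partner of NDUFV1, differed by 0.36 on the log2 scale (adjusted p = 0.412), and by 0.33 without EV replicate 1.

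NDUFS7, which carries the last iron-sulfur cluster before quinone, was separate between groups at 5.22 to 5.73 in BORA tumours and 4.47 to 5.05 in EV tumours. Its log2 difference was 0.80 in both sets of arrays (adjusted p = 0.137 over 8 and 0.101 over 7). All its values were below the negative control percentile, which was 7.62 to 8.13 in BORA and 7.82 to 8.24 in EV arrays, so its fold is uncertain. NDUFS3, another core subunit of this arm, was at -0.09 (95% interval -0.40 to 0.22), and at -0.10 over 7 arrays. NDUFA2, an accessory subunit of the NADH-binding end, was at 0.71 (adjusted p = 0.271), with an EV mean of 7.58 below the percentile. NDUFS4, an accessory subunit, was at 0.20, NDUFA7 at 0.43, NDUFA5 at -0.05 and NDUFA12 at 0.02, and without EV replicate 1 NDUFA12 was at -0.11.

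All 18 members of the membrane arm, which carries the proton pumps, had values above 0 over 8 arrays (0.01 to 0.69, median 0.29). Without EV replicate 1, 17 did, and NDUFB6 was at -0.22. Of the bright clusters 63.8% had values above 0 over 8 arrays. After quantile normalization 16 of the 18 members did over 8 arrays and 15 over 7. NDUFA13, also known as GRIM-19, was at 9.14, 8.76, 8.76 and 9.03 in BORA tumours and at 8.23, 8.16, 8.22 and 8.33 in EV tumours. The EV values span little and lie below all BORA values. The log2 difference was 0.69 in both sets of arrays (SE 0.143, adjusted p = 0.129 over 8; SE 0.167, adjusted p = 0.101 over 7).

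The NDUFB subunits build the far end of this arm. NDUFB8 was at 8.94, 9.41, 8.88 and 9.05 in BORA tumours against 8.01, 8.57, 8.68 and 8.33 in EV tumours, a log2 difference of 0.67 (SE 0.191, adjusted p = 0.204), and 0.54 over 7 arrays. NDUFB11 (0.65), NDUFB10 (0.56) and NDUFA10 (0.50) were likewise separate between groups and did not pass. Over 7 arrays these were at 0.50, 0.46 and 0.46. NDUFB9 (0.30) and NDUFS5 (0.29) were separate too, although by less. NDUFB3 was the lowest of this arm over 8 arrays, at 0.01 (95% interval -0.33 to 0.35). Whether the members of this arm differ from each other was not tested.

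**Figure D3:**
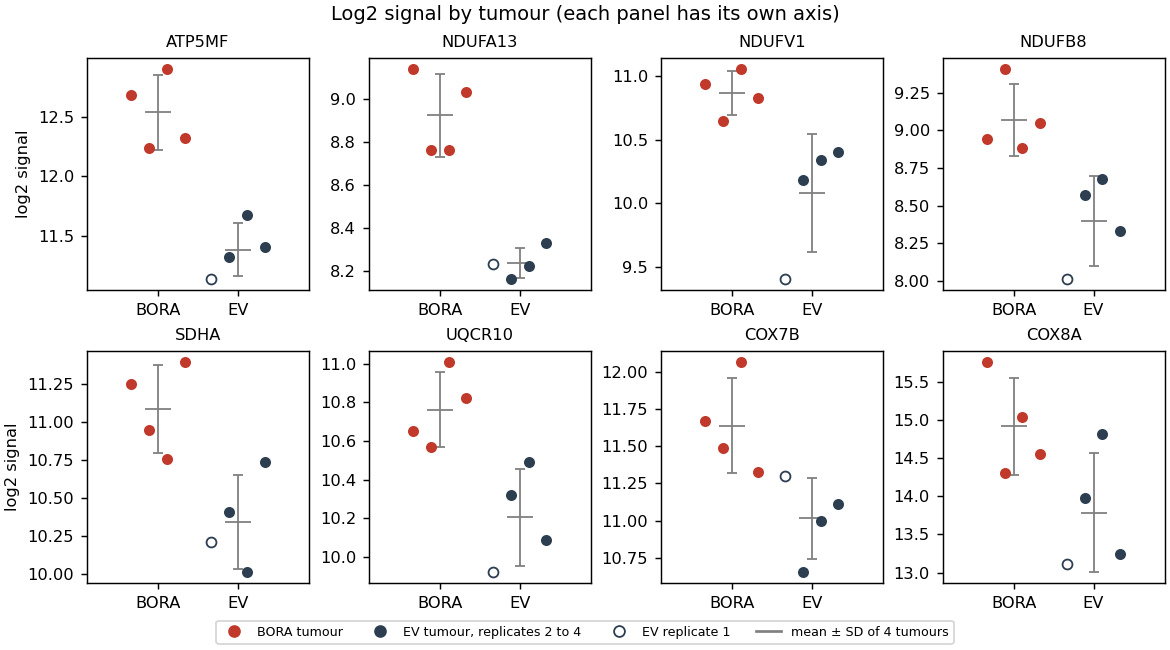
Log2 signal (y axis, a separate scale in each panel) of 8 members in BORA and EV tumours; points are tumours, grey bars the mean ± SD of 4 tumours, and the open point is EV replicate 1. ATP5MF, NDUFA13, NDUFV1, NDUFB8, SDHA, UQCR10 and COX7B do not overlap between groups, while COX8A does through EV replicate 3.

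Complex II oxidises succinate in the citric acid cycle and has 3 measured members. SDHA, the flavoprotein that holds the active site, was at 11.25, 10.95, 10.76 and 11.40 in BORA tumours and at 10.21, 10.41, 10.01 and 10.74 in EV tumours. The gap between groups is narrow, 10.76 against 10.74. Its log2 difference was 0.75 (SE 0.205, adjusted p = 0.193) and 0.70 without EV replicate 1 (adjusted p = 0.173). The membrane anchor SDHC was separate as well, at 11.06 to 11.20 in BORA tumours and 10.57 to 10.94 in EV tumours (log2 difference 0.33, adjusted p = 0.326, and 0.35 over 7 arrays). SDHD, the other anchor, was at 0.53 (adjusted p = 0.383), with 8.37 in EV replicate 1 and 9.04 to 9.36 in the other EV tumours, and at 0.32 without that array.

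The promoters below are shown for members at the upper end of the differences in complexes I, II and IV whose bases before the start hold a match searched for, with SDHD as the member of complex II that holds 2 of the motifs. The motifs were that of NRF1, which appears here as GCGCAGGCGC in SDHA and GCGCATGCGC in SDHD, CCGGAAG for ETS factors and AAGATGGCG for YY1. They were searched on both strands, with overlaps kept, and windows ran from 250 bases before to 50 after the start, from RefSeq on GRCh38.p14. Printed are the 250 bases before the start, 5′ to 3′ on the gene's strand (+ in all 4), with matches in capitals. SDHA is at chr5:218070-218319, SDHD at chr11:112086623-112086872, NDUFA13 at chr19:19515975-19516224 and COX8A at chr11:63974370-63974619.
SDHA: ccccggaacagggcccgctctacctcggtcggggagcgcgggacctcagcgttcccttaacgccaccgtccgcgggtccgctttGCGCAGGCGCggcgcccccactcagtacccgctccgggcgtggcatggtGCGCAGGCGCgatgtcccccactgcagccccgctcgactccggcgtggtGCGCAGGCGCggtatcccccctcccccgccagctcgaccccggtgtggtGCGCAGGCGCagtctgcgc
SDHD: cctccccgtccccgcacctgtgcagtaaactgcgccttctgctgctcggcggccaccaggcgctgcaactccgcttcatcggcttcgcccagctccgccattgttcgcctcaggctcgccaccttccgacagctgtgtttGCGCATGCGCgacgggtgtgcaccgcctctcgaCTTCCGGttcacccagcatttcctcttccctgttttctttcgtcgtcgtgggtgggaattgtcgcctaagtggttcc
NDUFA13: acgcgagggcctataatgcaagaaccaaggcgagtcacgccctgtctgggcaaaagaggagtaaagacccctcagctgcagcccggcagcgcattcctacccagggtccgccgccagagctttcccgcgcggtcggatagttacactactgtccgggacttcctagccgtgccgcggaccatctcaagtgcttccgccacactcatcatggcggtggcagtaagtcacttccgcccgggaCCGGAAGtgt
COX8A: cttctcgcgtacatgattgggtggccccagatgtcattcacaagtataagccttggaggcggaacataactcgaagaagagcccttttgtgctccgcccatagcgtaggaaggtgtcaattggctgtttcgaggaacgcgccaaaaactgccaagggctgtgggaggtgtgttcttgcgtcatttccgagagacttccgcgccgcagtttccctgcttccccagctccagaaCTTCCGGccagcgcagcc
SDHA holds 4 NRF1 matches, SDHD 1 NRF1 and 1 ETS match, and NDUFA13 and COX8A 1 ETS match each.

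A window was matched for 62 of the 78 members, 8 of them with more than 1 window. NRF1 letters were in 15 of them (24.2%, against 9.98% of 14250 measured genes with a window), ETS letters in 18 (29.0%, against 16.6%) and YY1 letters in 8 (12.9%, against 3.28%). A match is a description of letters and not a measured site. The median log2 difference was 0.24 in members with the NRF1 letters and 0.31 in those without, 0.34 and 0.27 for ETS, and 0.22 and 0.32 for YY1. ATP5MF has no entry and is named only.

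Complex III passes electrons from ubiquinol to cytochrome c, and 6 of its 9 members had values above 0. UQCR10, a small subunit, was at 10.65, 10.57, 11.01 and 10.82 in BORA tumours and at 9.92, 10.32, 10.49 and 10.09 in EV tumours, without overlap. Its log2 difference was 0.56 (SE 0.172, adjusted p = 0.227) and 0.47 without EV replicate 1 (adjusted p = 0.248). Other small subunits were at 0.32 (UQCR11), 0.31 (UQCRQ) and 0.18 (UQCRB). CYC1, cytochrome c1, was at 0.29 (95% interval -0.22 to 0.80), and at 0.20 over 7 arrays. The large core proteins of the matrix face were nearest 0, UQCRC1 at 0.06 and UQCRC2 at -0.01 (95% interval -0.34 to 0.32). UQCRH and its near copy UQCRHL lay at 3.52 to 4.34 in all arrays, far below the negative controls, so this table has no usable reading of the hinge subunit.

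In complex IV, cytochrome c oxidase, all 10 common subunits had values above 0 in both sets of arrays (medians 0.39 and 0.35). COX7B was at 11.67, 11.49, 12.07 and 11.33 in BORA tumours and at 11.30, 10.65, 11.00 and 11.11 in EV tumours, separate by a narrow gap. Its log2 difference was 0.63 (SE 0.204, adjusted p = 0.243) and 0.72 without EV replicate 1 (adjusted p = 0.141). COX8A, the common form of subunit 8, was at 15.76, 14.31, 15.03 and 14.55 against 13.11, 13.98, 14.81 and 13.24. The spread within each group is wide and EV replicate 3 lies above BORA replicates 2 and 4. The log2 difference of 1.13 (SE 0.417, adjusted p = 0.282) was 0.90 without EV replicate 1. COX7C, COX6C and COX7A2 were at 0.27, 0.44 and 0.65. COX7A2 was also low in EV replicate 3 (10.45), next to EV replicate 1 (10.09) and 11.31 to 11.32 in the other EV tumours. COX4I1 and COX5A, which join early in assembly, were at 0.40 and 0.12, COX5B at 0.35, COX6A1 at 0.21 and COX6B1 at 0.38. COX7A2L, which joins complexes III and IV, was at 0.43 (adjusted p = 0.290).

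Of the 6 tissue isoforms, 5 had values below 0 and none passed (0 of 6): COX4I2 was at -0.31, COX6A2 at -0.20, COX6B2 at -0.69, COX7A1 at -0.11 and COX8C at -0.46. COX7B2 was at 0.55. COX7A1, the form of heart and skeletal muscle, was the single isoform above the negative controls in both groups, at 7.79 to 8.74 in BORA tumours and at 7.28, 8.95, 9.51 and 8.01 in EV tumours. Its values overlapped, and the log2 difference was -0.11 over 8 arrays (95% interval -1.10 to 0.89) and -0.49 without EV replicate 1 (-1.22 to 0.24). COX4I2, COX6A2, COX6B2 and COX8C were below the percentile in both groups, and COX6B2 was at 5.41 in EV replicate 1 and at most 3.91 elsewhere. Among clusters with a mean under 6, 25.6% had values above 0 in BORA tumours, and COX4I2, COX6B2 and COX8C, which are in that range, lay on the side where most such clusters lay. COX6A2 is in the range of 6 to 8, where 52.0% had values above 0. Of 11 measured striated muscle markers, 1 (ACTA1) exceeded the percentile, and their mean level was 5.10 to 5.27 in BORA and 5.29 to 5.62 in EV tumours.

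COXFA4, the present symbol of NDUFA4 and a subunit now counted with complex IV, was outside the symbol rule. It was at 12.56, 12.13, 12.38 and 11.91 in BORA tumours and at 11.11, 12.08, 12.15 and 12.13 in EV tumours. The log2 difference of 0.38 (adjusted p = 0.522) was 0.13 without EV replicate 1, the lowest array. Its relative COXFA4L2 (NDUFA4L2), known as a gene induced by hypoxia, was at 14.62 in EV replicate 1 and between 4.91 and 8.81 in the other 7 tumours.

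Complex V held the member with the smallest p in both sets of arrays. ATP5MF, subunit f of the membrane part, was at 12.69, 12.24, 12.91 and 12.32 in BORA tumours and at 11.13, 11.32, 11.67 and 11.40 in EV tumours. Every BORA tumour lay above every EV tumour by at least the gap from 11.67 to 12.24. Over 8 arrays the log2 difference of 1.16 (SE 0.194), or 2.24-fold, did not pass (adjusted p = 0.0855 by limma). Without EV replicate 1 ATP5MF rose, with an adjusted p of 0.0498 by limma (log2 difference 1.08, SE 0.201, which is 2.11-fold). That call ended whichever further array was left out (adjusted p = 0.0658 to 0.134) and after quantile normalization (log2 difference 0.99, adjusted p = 0.0682), so it lies at the threshold. The readthrough ATP5MF-PTCD1, which shares sequence with it, was at 3.29 to 3.71, below the negative controls.

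In the other parts of ATP synthase the values varied, and whether the parts differ from each other was not tested. In the F1 head ATP5F1D, the delta subunit of the central stalk, was at 10.32, 9.0, 10.27 and 9.23 in BORA tumours against 8.50, 8.47, 9.26 and 8.14 in EV tumours. EV replicate 3 lay above BORA replicates 2 and 4, and the log2 difference was 1.11 (SE 0.352, adjusted p = 0.232), and 1.08 over 7 arrays. ATP5F1C, the gamma subunit of the same central stalk, was at 0.24. The catalytic head was nearer 0 than ATP5F1D, with ATP5F1A at 0.26 (95% interval -0.30 to 0.82) and ATP5F1B at 0.04 (-0.36 to 0.44). All 4 peripheral stalk genes lay between -0.03 and 0.11 (ATP5PB, ATP5PD, ATP5PF and ATP5PO), and between -0.09 and 0.05 over 7 arrays. ATP5MC1, ATP5MC2 and ATP5MC3, which encode the same mature ring subunit c, were at 0.39, 0.44 and 0.25.

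In the membrane part ATP5MG and ATP5ME, subunits g and e, were at 0.72 and 0.53 over 8 arrays but at 0.32 and 0.26 without EV replicate 1. That tumour had 11.00 and 9.17, against 12.27 to 12.92 and 10.04 to 10.38 in the other EV tumours. ATP5MJ was at 0.06. ATP5IF1, which blocks the reverse reaction of the enzyme, was separate between groups at 11.44 to 11.69 in BORA tumours and 11.21 to 11.34 in EV tumours, with a log2 difference of only 0.27 (adjusted p = 0.376).

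The part of the wider spread of BORA arrays in these differences was not tested, and values are given before and after quantile normalization. Of the 65 members above the negative control percentile in both groups 61 (93.8%) had values above 0 (median 0.30), against 63.8% of all 6861 such clusters (median 0.10). After quantile normalization, which gives all arrays the same distribution, these were 81.5% (median 0.21) and 49.2% (median 0.00). In clusters with a mean of 10 to 12, 26 members had a median of 0.35 and all 2250 clusters one of 0.13. At 12 to 14 the medians were 0.31 in 20 members and 0.11 in 906 clusters, and at 8 to 10 they were 0.24 in 15 members and 0.11 in 3556 clusters. After quantile normalization the medians of complexes I to V were 0.21, 0.42, 0.07, 0.23 and 0.14, and ATP5MF, NDUFS7 and NDUFA13 had the smallest p (log2 differences 1.07, 0.93 and 0.57).

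**Figure D4:**
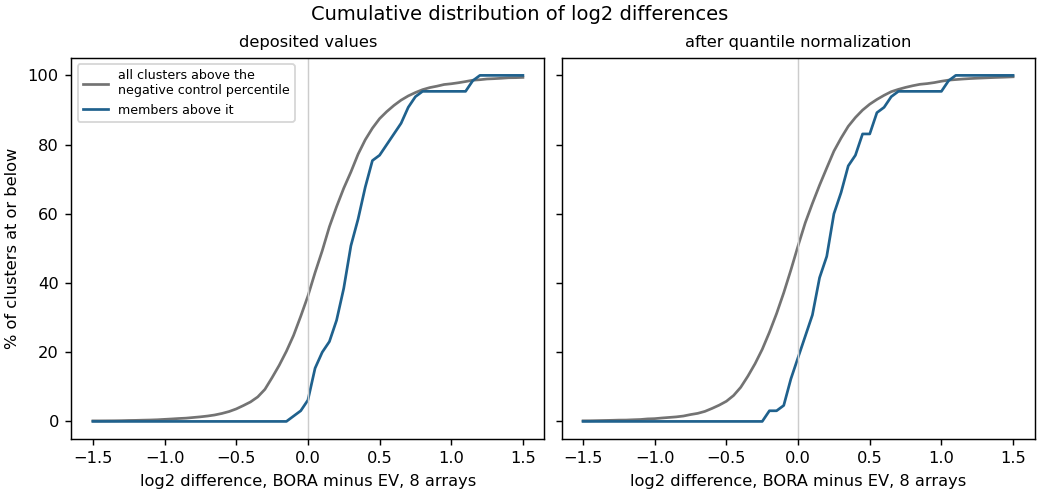
Cumulative share (y axis, %) of clusters at or below each log2 difference (x axis, BORA minus EV, 8 arrays) for the 65 members and all 6861 clusters above the negative control percentile in both groups; deposited values on the left, quantile normalized on the right. The member curve lies to the right of the curve of all clusters over most of the range in both panels, and both curves move left after normalization.

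Other mitochondrial gene lists were measured the same way, and no gene of them passed in either set of arrays. The mitochondrial ribosome, which translates the subunits encoded in mitochondrial DNA, had 62 of 74 genes above 0 (median 0.23, and 0.14 without EV replicate 1). Among them were MRPS5 (0.72), MRPL57 (0.61) and MRPL2 (0.58, below the negative controls in EV tumours). Of 54 measured assembly factors 39 were above 0 (median 0.09, and 0.05 over 7 arrays), with HIGD2A at 0.89, PET100 at 0.51 and UQCC2, which was below the negative controls, at 0.57, and COX14, a complex IV factor, at -0.51. Citric acid cycle genes had a median of 0.15 (12 of 16 above 0) and 0.14 over 7 arrays. MDH2 was at 0.22, OGDH at -0.26 and DLAT, which was below the negative controls in both groups, at 0.43. Import and outer membrane genes had a median of 0.18 (12 of 16, TOMM7 at 0.47, TOMM40 at 0.74 and HSPE1 at 0.46), but of 0.06 over 7 arrays. Electron carriers with ubiquinone synthesis had a median of 0.10 (16 of 21) and 0.11 over 7 arrays. Their smallest p were those of COQ8A (-0.47), PDSS2 (0.53) and COQ8B (0.76), all below the negative controls. These counts stand beside the 63.8% of bright clusters and the 46.6% of all clusters above 0. They include dim genes. Above the negative controls in both groups were 50 of 74 ribosome genes, 31 of 54 assembly factors and 9 of 21 carrier genes. In the citric acid cycle and import lists it was 14 of 16 each. After quantile normalization 53 of 74 ribosome genes (median 0.13), 28 of 54 assembly factors (0.03), 9 of 16 citric acid cycle genes (0.03), 10 of 16 import genes (0.09, and -0.04 over 7 arrays) and 12 of 21 carrier genes (0.02) were above 0. The transcriptional regulators were evenly split, 9 of 18 above 0 (median -0.01). Among them PPRC1, a coactivator of the PGC-1 family, was at 0.63, and NRF1 and GABPA, which bind motifs of the NRF1 and ETS kind, at 0.38 and 0.34. PPRC1 and NRF1 were dim, below that percentile in BORA and EV tumours alike. MYC was at -0.54, and at -0.73 over 7 arrays. Housekeeping genes had a median of 0.29 (8 of 9 above 0), as high as that of complex I. Of their 9 genes B2M (0.57), GUSB (0.55) and ACTB (0.70) had the smallest p, and GUSB was below the negative controls in both groups.

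Some cell type markers differed in level between the groups, and their part in these differences was not tested. The array design is human and the host was a mouse. Whether these signals came from the human tumour cells or from mouse RNA that binds human probes was not tested. Leukocyte markers had 7 of 8 values below 0 in BORA tumours, with mean levels of 6.62 to 7.07 there and 6.58 to 7.67 in EV tumours, and 2 of the 8, CD68 and PTPRC, were above the negative controls in both groups. PTPRC, the leukocyte antigen CD45, was at 10.83, 9.68, 10.96 and 10.09 in BORA tumours and at 6.91, 12.19, 12.24 and 12.94 in EV tumours. Over 8 arrays its log2 difference was -0.68 (limma adjusted p = 0.803), and without EV replicate 1 it fell by 2.07 (adjusted p = 0.0194). Endothelial markers had 5 of 7 values below 0, with CDH5 (2.28) and PECAM1 (1.56) above, mean levels of 5.49 to 5.91 and 5.19 to 5.80, and 0 of the 7 above the negative controls in both groups. CDH5 was below them in both and PECAM1 in EV tumours, so these sizes are uncertain. Neither CDH5 nor PECAM1 passed (adjusted p = 0.129 and 0.137 over 8 arrays). Beside these counts, 46.6% of all clusters had values above 0, and 25.6% of those with a mean under 6. In that range were the 5 endothelial markers below 0 and, of the leukocyte markers, CD14 and AIF1. CD3E, ITGAM, CSF1R and LYZ were at 6 to 8, where 52.0% of clusters had values above 0. Fibroblast markers had 3 of 6 values above 0, with mean levels of 8.52 to 8.94 and 7.89 to 8.84. Ovarian carcinoma epithelium markers had 6 of 9 values above 0 (median 0.02), and 3 of 9 over 7 arrays (median -0.15). Among them PAX8 was at 1.10 and MUC1 at 1.59, and CLDN4 at -0.94 and KRT19 at -0.95. None of the 9 passed in either set of arrays.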

How the data were processed

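Total RNA of 8 SK-OV-3 xenografts (4 BORA, 4 EV) was measured on Affymetrix arrays. The submitters' processing notes name Affymetrix Expression Console. Its version, the normalization, the log base and the build are not stated in the labels. From their range the authors' deposited values were read as log2, and folds hold only on that reading. The array design is uncertain: row identifiers belong to another Affymetrix human array than the one in the series' text. Of 24351 rows 17709 have 1 gene symbol and 0 have several. The arrays were separate (at most 0.0113% identical values). Signal over background and the number of arrays limit the precision.

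All 17709 clusters were fitted with limma 3.58.1 in R 4.3.3 (lmFit, eBayes, no covariates, no filter), BORA minus EV, with Benjamini-Hochberg adjustment over all clusters and a threshold of 0.05. Levels were set against the 95th percentile of 612 negative controls per array. The fit was tested with simulated arrays. Named were members past the threshold, the 4 with the smallest p per complex, core subunits, isoform sets, extremes and far samples, and 3 genes per list. Further members were named after their values were seen, so that each complex is covered. The members and lists were chosen with earlier results of these data known. The alternatives tried were a block for the replicate number, quantile normalization, median centring, an intensity trend with robust fitting, array weights, filters on dim clusters, other member rules, a threshold of 0.10 and leaving out each array. The combined normalization and filter, and the further arrays left out of the 7, were added after the data were seen, as were the brightness classes.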

Additional observations from a re-analysis of the deposited data

Results flagged for a closer look

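In 5 of the 156 groups of 4 values (78 members, both groups) a single tumour lay far from the other 3, by a gap over 0.829 of the group's range, where chance gives about 1 in 20 such groups. COX7A2L was low in BORA replicate 4, at 12.75 against 13.09 to 13.13 (0.890 of the range). COX7B2 was low in EV replicate 1, at 7.13, where the others reached 8.06 (0.939). NDUFS4 was high in BORA replicate 3, at 11.14 against 10.80 to 10.83 (0.926). UQCR11 was high in EV replicate 2, at 12.06 against 11.84 to 11.86 (0.893). UQCRHL was high in BORA replicate 3, at 4.01 against 3.72 to 3.76 (0.863), below the negative controls.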

How the results depend on the processing

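Over 8 arrays no alternative turned a complex median below 0. The count of members called higher went from 0 to 1 with array weights, at an adjusted p under 0.10 and without EV replicate 1, in each case ATP5MF (0 to 1 over the arrays left out in turn), and 0 were lower throughout. Quantile normalization moved the medians of complexes III and IV to 0.07 and 0.23, and leaving out clusters below the median or below the negative control percentile moved that of complex III to 0.29. Over all clusters the 18 calls higher went to 1 with the replicate block, 43 with array weights, 9 under either filter and 46 at 0.10, and the 0 calls lower to 1 with the trend, 5 with weights and 3 at 0.10. Leaving out each array gave 1 to 77 higher and 0 to 14 lower.

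Over the 7 arrays the call of ATP5MF ended (1 to 0) with the replicate block, quantile normalization, median centring, without clusters below the negative control percentile and without each further array (0 in all). It held with the trend and robust fitting (limma adjusted p = 0.0371), with array weights (0.0384) and without clusters below the median (0.0486). Quantile normalization moved the medians of complexes I and III to 0.16 and 0.06 (complex I also 0.16 with the filter added), and ubiquitous subunits alone moved that of complex IV to 0.35. The 77 calls higher went to 46 with centring, 51 and 33 under the filters and 203 at 0.10; the 14 lower went to 5 with the block, 28 with the trend, 24 with weights, 8 and 6 under the filters and 74 at 0.10. Leaving out each further array gave 24 to 106 higher and 1 to 46 lower. The cause of these moves was not tested. The labels share replicate numbers only and name no pairing. Same-numbered tumours correlated at -0.113 to 0.0713 in their deviations from the group means, and other pairs at -0.181 to 0.169. The deviations within a group depend on each other, so these values cannot decide whether the numbers pair the tumours. Over 7 arrays BORA replicate 1 is alone in its block, and the fit with the block drops it in effect.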

Other observations

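The other genome of the respiratory chain was read only through unnamed rows. The table holds 10 rows whose identifier has M in the place that names the chromosome, a place that matched the chromosome in RefSeq for 99.9% of the named clusters. They have no symbol in the annotation and are given here without gene names. Their signals ran from 12.25 to 19.84. All 10 had a BORA minus EV difference below 0, from -0.82 to -0.01 with a median of -0.06. Of all named clusters 46.6% had values above 0. Separate between groups were 0 of the 10 rows, against 4.45% of named clusters with BORA higher and 4.91% with BORA lower. Without EV replicate 1 the values ran from -1.25 to 0, with 1 row at 0. In 4 rows all signals lay at 19.29 to 19.84 and varied little in both groups, and how far the array can still resolve differences there was not tested. The row with the widest spread was at 12.25, 12.52, 12.90 and 13.17 in BORA tumours and at 12.26, 13.68, 14.90 and 13.30 in EV tumours. No test result is given for these rows.

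BORA replicate 1 differed from the other BORA tumours in a list of genes induced by hypoxia. The mean of 11 such genes, each set to 0 at its mean over 8 arrays, was -1.41 there and 0.30 to 0.56 in the other BORA tumours, and -0.35 to 0.38 in EV tumours. VEGFA was at 12.98 there against 15.58 to 16.10, and NDRG1 at 11.39 against 14.43 to 14.96. In the same tumour the mean of the 78 respiratory chain members was 0.29, the highest of the 8, against 0.01 to 0.16 in the other BORA tumours. This pattern rests on a single tumour and was noticed after its values were seen.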
